A study of Bos taurus with 15 samples.

Results

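The TGF-beta, BMP and activin pathway was examined through 50 genes in the subcutaneous adipose tissue of dairy cows. These genes were chosen by symbol, as every gene in all 6 deposited tables whose name begins like a BMP or its receptor, a GDF, a TGF-beta or its receptor, an inhibin or activin subunit, an activin receptor, a SMAD, a latent TGF-beta binding protein (LTBP) or AMH. They are 50 of the 13894 genes whose reads could be recovered for each library. By role, 24 are ligands or ligand subunits, 3 are LTBPs, 11 are type I or type II receptors and 8 are SMADs. The pattern also takes in 4 genes with other roles, namely BMPER, BMP2K, TGFB1I1 and TGFBRAP1. No sequence of these genes is shown.

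Ligands of this family are secreted as dimers, and the TGF-betas are kept latent in the extracellular matrix by LTBPs. A ligand joins type I and type II receptors, and the type I receptor then phosphorylates receptor-regulated SMADs, which enter the nucleus with SMAD4, while SMAD6 and SMAD7 inhibit the signal. In adipose tissue, TGF-beta and activin are known to restrain adipocyte differentiation and to promote matrix production, and BMPs are known to act on the commitment of adipocyte progenitors and on endothelial cells.

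All cows were primiparous Prim Holstein animals, and RNA of 3 cows per group was sequenced in 15 libraries, 1 per cow and time. The -4 wkpp group (weeks peripartum, so 4 weeks before the presumed calving) was sampled before the diets began. The LE cows received a low energy diet from a month before calving and the HE cows a high energy diet over the same time, and both were sampled at 1 wkpp and 16 wkpp. The study's methods sort its cows into severe and moderate negative energy balance by their values at 1 wkpp, whereas the labels name the diet, and the groups are called by diet here. The study lists its libraries as severe where the labels, in the same order, have LE, and as moderate where they have HE. By that order, diet and selected energy balance cannot be told apart in any comparison of LE with HE. The study also lists a lower aligned share of reads for every moderate library than for every severe library. The RNA came from the cows at the extremes of energy balance, so that the groups do not span the herd. The fat came from the dewlap, so that other depots are not covered. The study's methods take a biopsy of every animal at all 3 times, so that the libraries of a diet at 1 and 16 wkpp may come from the same 3 cows, and those at -4 wkpp from some of them. The labels do not tie a library of one time point to a library of another, so that all libraries were tested as separate cows, and no time-matched control without a diet is among the groups.

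Exonic reads on genes ranged from 8339235 to 14928006 in the 9 libraries of the -4 wkpp and LE groups, and from 2034144 to 7565988 in the 6 HE libraries. Spike-in RNA took 0.831% to 4.31% of exonic reads in the former and 15.3% to 30.8% in the latter, so that diet and these measures cannot be told apart. The adipocyte markers LEP, PPARG, LIPE, PLIN1, FABP4 and CIDEC (6 of 8 measured, without ADIPOQ and PLIN4) had a summed level of 44561 to 54656 normalized exonic reads at -4 wkpp, 71812 to 87407 in LE 1 wkpp, 41559 to 48065 in LE 16 wkpp, 18792 to 56105 in HE 1 wkpp and 9364 to 39380 in HE 16 wkpp. Of the 5 tested with limma voom, as described below, 3 were higher and 1 lower at -4 wkpp than in HE 1 wkpp at an unadjusted p below 0.05. At -4 wkpp 1 was higher and 3 lower than in LE 1 wkpp, and 2 were higher and 1 lower in LE 16 wkpp than in HE 16 wkpp. Of all genes, 25.3%, 9.62% and 26.1% passed in these comparisons in either direction. Lymphatic endothelium markers (4 of 5 measured) summed to 2221 to 4368 in the -4 wkpp and LE libraries and 310.5 to 823 in the HE libraries, mast cell markers (3 of 4) to 1137 to 4445 against 248 to 517, and skeletal muscle markers (7 of 7) to 85.0 to 356 against 1178 to 4105. Macrophage markers (4 of 5 measured, none at 0) summed to 4865 to 6930 at -4 wkpp, 7493 to 11441 in LE 1 wkpp, 10352 to 13547 in LE 16 wkpp, 1967 to 6888 in HE 1 wkpp and 1917 to 2214 in HE 16 wkpp. Keratinocyte markers (4 of 5) summed to 121 to 287 at -4 wkpp, 2.62 to 5.97 in LE 1 wkpp and 2.46 to 8.35 in LE 16 wkpp. In HE they summed to 6.28 to 269.5 at 1 wkpp and 0 to 51.1 at 16 wkpp. Erythrocyte markers (3 of 3) summed to 33.7 to 292 at -4 wkpp, 13.0 to 47.2 in LE 1 wkpp and 12.3 to 12.5 in LE 16 wkpp. In HE they summed to 16.75 to 336 at 1 wkpp and 17.7 to 84.3 at 16 wkpp. The part of these cell type markers in the differences described here was not tested. In bulk tissue, fewer cells of a type and less RNA per cell cannot be told apart.

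**Figure D1:**
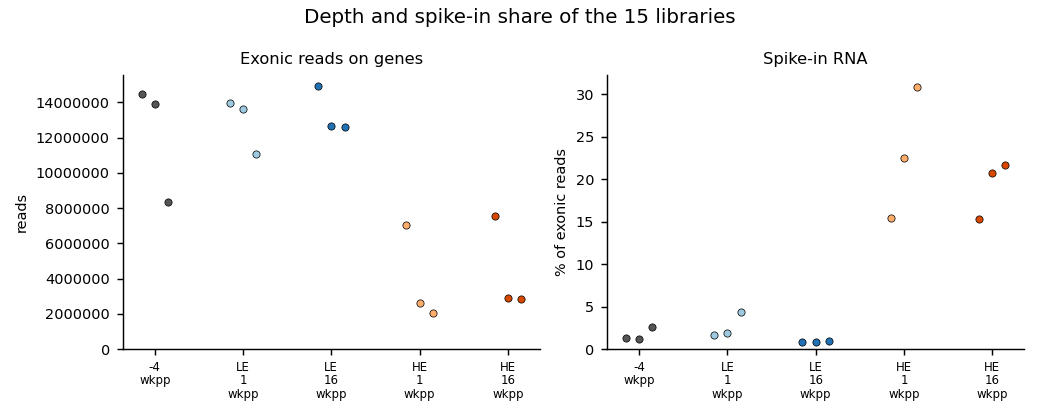
Exonic reads on genes (left) and spike-in RNA as a percentage of exonic reads (right) in each of the 15 libraries, by group, 1 point per library. All 6 HE libraries lie above 15% spike-in RNA, and the 9 others lie at or below 4.31%.

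Pairwise tests were run for 6 comparisons with limma voom on reads in exons and, separately, on reads over the entire gene, introns included. A gene was called a DEG when its adjusted p was below 0.01 in both read sets with the same direction. Differences are log2 values of the first named group minus the second, with their standard error (SE), and levels are normalized exonic reads of the 3 libraries unless stated otherwise. Of the 50 members, 36 were tested in all 6 comparisons, 3 in some of them and 11 in none because of their low reads. The comparisons share libraries (both comparisons with -4 wkpp use the same 3 of that group), and each 1 wkpp group enters 3 comparisons and each 16 wkpp group 2, so their values stand side by side and are not repeats of each other.

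TGFB1I1 was the only member called by these criteria, in LE 16 wkpp against HE 16 wkpp, that is 1 of 38 tested members where 3.65% of 10162 genes were called, and 12 members had an unadjusted p below 0.05 in both read sets (26.1% of all genes did). In -4 wkpp against HE 1 wkpp, 0 of 38 members were called with limma voom, beside 1.84% of all genes, although 12 members had an unadjusted p below 0.05 in both read sets (25.3% of all genes did) and voom with sample quality weights called 7 (BMP2K, BMPR1A, BMPR2, LTBP1, TGFBR1 and TGFBR2 higher at -4 wkpp and ACVR2B lower), beside 15.1% of all genes. One fit over all 15 libraries called BMPR1A, LTBP1, TGFBR1 and ACVR2B in the same directions, beside 10.5% of all genes. In -4 wkpp against LE 1 wkpp, 0 of 39 members were called (0.0377% of all genes), with 7 members below an unadjusted p of 0.05 (9.62% of all genes) and 1 called with quality weights (2.81% of all genes). Between LE 1 wkpp and HE 1 wkpp, 0 of 38 members and 0% of genes were called, with 7 members below the unadjusted threshold (18.3% of all genes) and 1 called with quality weights (7.72% of all genes).

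Between 1 and 16 wkpp no member was called within either diet by limma voom, limma-trend or voom with quality weights. In HE cows 3 of 36 members had an unadjusted p below 0.05 in both read sets (8.02% of all genes, of which 0% were called), and in LE cows 1 of 38 did (4.53% of all genes, of which 0% were called). The change from 1 to 16 wkpp did not pass the test for a difference between LE and HE for any of 38 members (0% of all genes), and 0 members had an unadjusted p below 0.05 there, beside 2.82% of all genes. These tests used no pairing of libraries by cow, so that a change within cows that a paired test could find is not covered.

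Exonic reads alone, tested at the same threshold, gave 4 members of 38 in -4 wkpp against HE 1 wkpp, namely ACVR1C, BMP7 and LTBP1 higher at -4 wkpp and ACVR2B lower, beside 16.5% of all genes. In LE 16 wkpp against HE 16 wkpp they gave 3 of 38, with LTBP1 higher and ACVR2B and TGFB1I1 lower in LE, beside 10.3% of all genes. No member passed on exonic reads in the other comparisons, where 0.494% (-4 wkpp against LE 1 wkpp), 1.92% (LE 1 wkpp against HE 1 wkpp), 0% (HE 1 against 16 wkpp) and 0% (LE 1 against 16 wkpp) of genes did.

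Counted by whether the 3 libraries of one group all lay on one side of the 3 of the other in both read sets, 11 of 38 members were separated in -4 wkpp against HE 1 wkpp (28.9%, beside 30.3% of all genes) and 12 of 38 in LE 16 wkpp against HE 16 wkpp (31.6%, beside 31% of all genes). In LE 1 wkpp against HE 1 wkpp 7 of 38 were (18.4%, beside 26.3%), in -4 wkpp against LE 1 wkpp 6 of 39 (15.4%, beside 11.9%), in HE 1 against 16 wkpp 2 of 36 (5.56%, beside 12.4%) and in LE 1 against 16 wkpp 2 of 38 (5.26%, beside 6.59%). The share of members was below that of all genes in 4 of the comparisons and slightly above it in -4 wkpp against LE 1 wkpp and LE 16 wkpp against HE 16 wkpp. Most members described below were named by their smallest p in comparisons with an HE group, so that their separation of HE libraries is not independent of that choice. How many of all genes keep every HE library apart from every other library was not counted. The median exonic difference of the tested members was 0.37 in -4 wkpp against HE 1 wkpp, beside 0.04 over all genes, and -0.07 in LE 16 wkpp against HE 16 wkpp, beside 0.03.

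**Figure D2:**
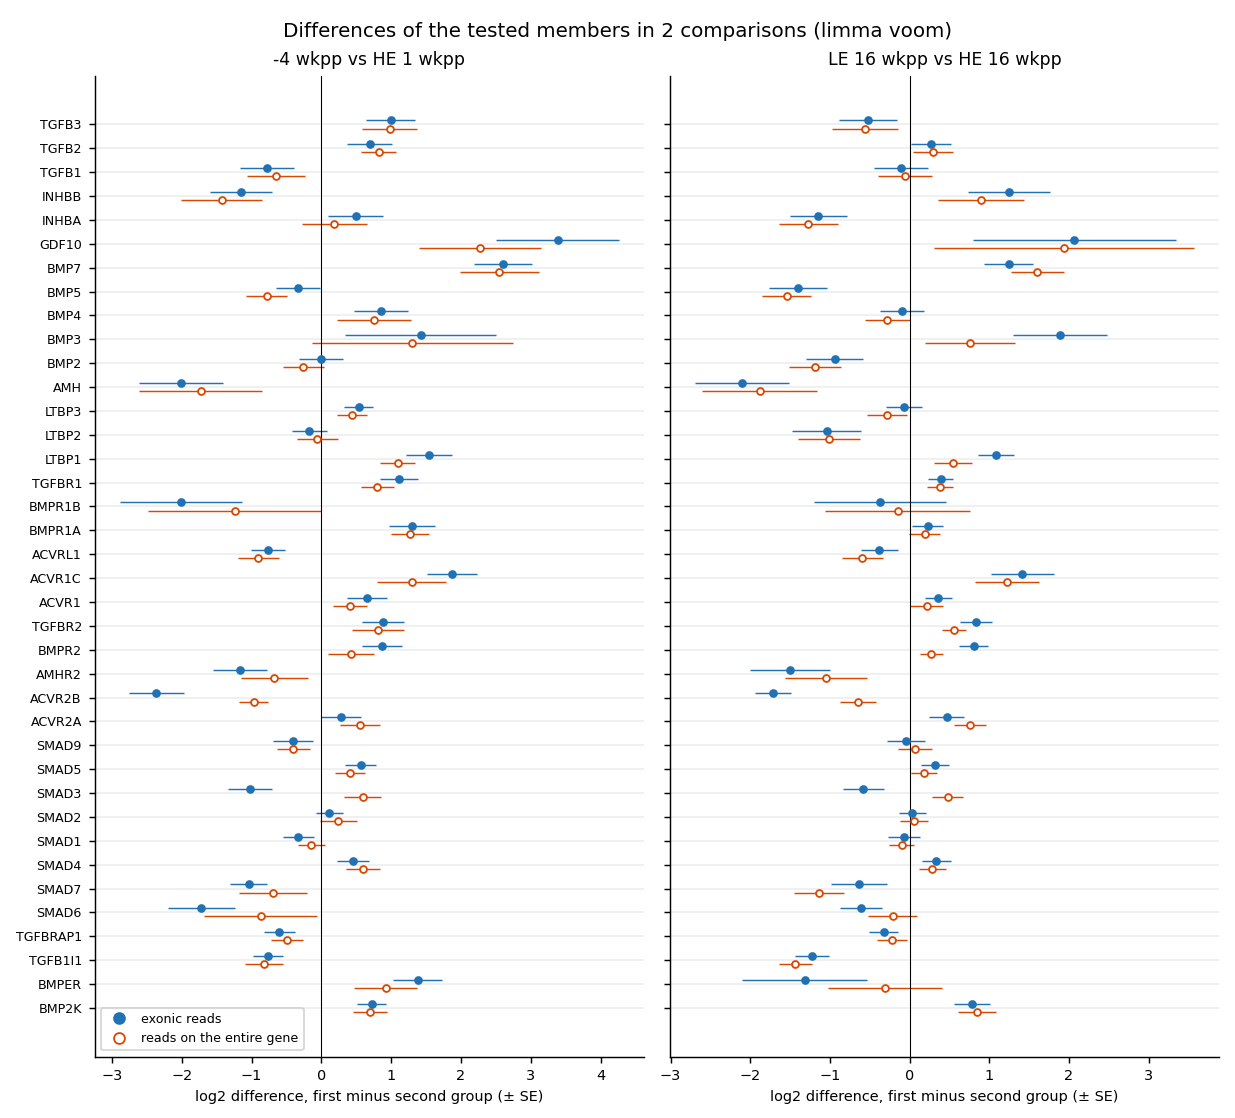
Log2 difference of each of the 38 tested members in -4 wkpp vs HE 1 wkpp (left) and LE 16 wkpp vs HE 16 wkpp (right), ordered by role, with points for exonic reads (filled) and reads on the entire gene (open) and bars for the SE. Most members lie within 1 log2 unit of 0 in both panels. SMAD3 in both panels and SMAD9 in the right panel lie on opposite sides of 0 in the 2 read sets.

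TGFB2 and TGFB3 encode isoforms of TGF-beta and were taken as examples of the ligands by their number of exonic reads, which is not corrected for gene length. TGFB2 had 570.4, 897 and 459.6 normalized exonic reads at -4 wkpp, 705, 309.9 and 359 in LE 1 wkpp, 279.6, 540.0 and 425 in HE 1 wkpp, 489.9, 764 and 464 in LE 16 wkpp and 399.9, 614 and 432 in HE 16 wkpp. In exonic reads the ranges of all 5 groups overlapped for TGFB2, and no comparison gave an unadjusted p below 0.05 in both read sets. On the entire gene TGFB2 had 2294, 3081 and 1919 at -4 wkpp against 1520, 1441 and 1162 in HE 1 wkpp, without overlap, and the difference was 0.69 ± 0.32 in exonic reads and 0.82 ± 0.25 in reads on the entire gene (adjusted p = 0.132 and 0.0925). Leaving out 1 library gave exonic differences of 0.39 to 0.92 for TGFB2 in this comparison. TGFB3 had 699, 792 and 565 at -4 wkpp, 537, 274 and 154 in LE 1 wkpp and 199, 467 and 572 in HE 1 wkpp. In exonic reads the -4 wkpp level of TGFB3 lay above both 1 wkpp groups apart from 1 overlapping HE library, with differences from LE 1 wkpp of 1.25 ± 0.38 in exonic reads and 1.19 ± 0.41 in reads on the entire gene (adjusted p = 0.168 and 0.317), and from HE 1 wkpp of 0.99 ± 0.35 in exonic reads and 0.98 ± 0.39 in reads on the entire gene (adjusted p = 0.0555 and 0.174). Without HE 1 wkpp library 1 the exonic difference from HE 1 wkpp was 0.44. Leaving out 1 library gave exonic differences of 0.83 to 1.71 for TGFB3 between -4 wkpp and LE 1 wkpp. At 16 wkpp TGFB3 had 297, 522 and 338 in LE and 332, 591 and 946 in HE. TGFB1 varied from 133 to 399 over the 15 libraries, and no comparison reached an unadjusted p below 0.05 in both read sets.

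INHBA and INHBB encode the beta subunits of the activins. INHBA had 55.5, 54.0 and 42.2 normalized exonic reads at -4 wkpp and 21.4, 24.4 and 15.7 in LE 1 wkpp. In HE 1 wkpp INHBA had 32.5, 38.0 and 44.3, in LE 16 wkpp 48.0, 25.9 and 32.0 and in HE 16 wkpp 61.9, 85.2 and 114. INHBA was thus lowest in the LE 1 wkpp libraries and highest in the HE 16 wkpp libraries, with a difference between -4 wkpp and LE 1 wkpp of 1.31 ± 0.33 in exonic reads and 1.45 ± 0.43 in reads on the entire gene (adjusted p = 0.0956 and 0.237). The difference between LE 16 wkpp and HE 16 wkpp was -1.15 ± 0.35 in exonic reads and -1.27 ± 0.37 in reads on the entire gene (adjusted p = 0.0448 and 0.0551), and the libraries of those groups did not overlap. These values rest on few reads, with 38, 45 and 24 exonic reads in LE 1 wkpp and 63, 33 and 42 in HE 16 wkpp.

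INHBB, singled out after its values were seen, differed in the direction opposite to INHBA around calving, at 29.5, 26.4 and 21.6 at -4 wkpp against 46.1, 135 and 142 in LE 1 wkpp. The -4 wkpp libraries lay below all 3 LE 1 wkpp libraries, with a difference of -1.85 ± 0.57 in exonic reads and -1.99 ± 0.67 in reads on the entire gene (adjusted p = 0.175 and 0.307). INHA, INHBC and INHBE, the other subunits, had 95, 5 and 1 exonic reads in all 15 libraries together and were not tested.

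BMP7, a ligand known for promoting thermogenic adipocytes, had 317, 305 and 229.8 normalized exonic reads at -4 wkpp and 30.4, 67.8 and 96.0 in HE 1 wkpp. In LE 1 wkpp BMP7 had 296, 163 and 94.4, in LE 16 wkpp 382, 243 and 309.8 and in HE 16 wkpp 122.8, 87.8 and 218. The HE libraries were low at both times, and none of them overlapped -4 wkpp or, at 16 wkpp, the LE libraries. Between -4 wkpp and HE 1 wkpp the difference was 2.60 ± 0.41 in exonic reads and 2.55 ± 0.57 in reads on the entire gene (adjusted p = 0.00147 and 0.0365), which passed the threshold in exonic reads only. At 16 wkpp the difference of LE from HE was 1.24 ± 0.31 in exonic reads and 1.60 ± 0.34 in reads on the entire gene (adjusted p = 0.0197 and 0.0189), and at 1 wkpp it was 1.85 ± 0.64 in exonic reads and 1.81 ± 0.74 in reads on the entire gene (adjusted p = 0.0819 and 0.248). Without HE 1 wkpp library 1 the exonic difference was 1.86 from -4 wkpp and 1.10 from LE 1 wkpp. The HE 1 wkpp values come from 29, 25 and 26 exonic reads.

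BMP5, a related ligand, was highest in HE 16 wkpp. It had 128, 178 and 182 at -4 wkpp, 150.0, 119 and 181 in LE 1 wkpp, 177, 231 and 142 in LE 16 wkpp, 265, 187 and 122 in HE 1 wkpp and 616, 658 and 231 in HE 16 wkpp. HE 16 wkpp libraries 1 and 2 were far above all others, and library 3 was level with the highest LE 16 wkpp library. LE 16 wkpp differed from HE 16 wkpp by -1.40 ± 0.36 in exonic reads and -1.54 ± 0.31 in reads on the entire gene (adjusted p = 0.0239 and 0.0165), and HE 1 wkpp from HE 16 wkpp by -1.24 ± 0.46 in exonic reads and -0.99 ± 0.34 in reads on the entire gene (adjusted p = 0.312 and 0.365). BMP5 and BMP7 thus lay on opposite sides of 0 between LE and HE at 16 wkpp, and neither was called at the threshold of 0.01 in both read sets.

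Among the remaining ligands, BMP2 and BMP4, which act on adipocyte progenitors, ranged from 118 to 452 and from 138 to 545 normalized exonic reads over the 15 libraries. BMP2, whose difference was chosen after its values were seen, had an unadjusted p below 0.05 in both read sets between LE 16 wkpp and HE 16 wkpp, with a difference of -0.94 ± 0.36 in exonic reads and -1.19 ± 0.32 in reads on the entire gene, and BMP4 in none of the 6 comparisons. GDF10, chosen here after its values were seen, had 91.9, 68.1 and 61.0 at -4 wkpp against 32.6, 15.2 and 4.59 in LE 1 wkpp and 6.28, 21.7 and 0 in HE 1 wkpp. The -4 wkpp libraries did not overlap either 1 wkpp group, with differences of 2.40 ± 0.57 in exonic reads and 2.50 ± 0.67 in reads on the entire gene from LE 1 wkpp (adjusted p = 0.0847 and 0.190) and of 3.39 ± 0.88 in exonic reads and 2.27 ± 0.87 in reads on the entire gene from HE 1 wkpp (adjusted p = 0.0156 and 0.158). The exonic mean of GDF10 was 9.33 in HE 1 wkpp, below the mean of 10 required for a test, and 73.6 at -4 wkpp. It was therefore tested in this comparison through the group in which it was high. The GDF10 values of HE 1 wkpp rest on 6, 8 and 0 exonic reads, so that its fitted difference from that group is imprecise, and leaving out 1 library moved the exonic difference to as much as 4.20 from HE 1 wkpp (without library 2 of that group) and to 1.72 or 3.04 from LE 1 wkpp (without its library 3 or 1).

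AMH, named for its role in the regression of the Müllerian duct and also chosen after its values were seen, was low everywhere, at 4.91 to 13.0 normalized exonic reads in the -4 wkpp and LE libraries and 15.7 to 49.0 in the HE libraries. The HE libraries held only 9 to 26 exonic reads of AMH each. BMP3 varied from 2.72 to 117 and GDF9 from 2.09 to 18.5. BMP8A, BMP10, BMP15, GDF2, GDF5, GDF6, GDF7 and GDF15 had between 5 and 72 exonic reads in all 15 libraries together and were not tested in any comparison.

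Among the latent TGF-beta binding proteins, LTBP1 encodes a matrix protein that holds TGF-beta in its latent complex. LTBP1 had 3616, 3960 and 3043 normalized exonic reads at -4 wkpp, 2819, 2578 and 1908 in LE 1 wkpp, 1880, 1284 and 702 in HE 1 wkpp, 2588, 3394 and 2935 in LE 16 wkpp and 1730, 1058 and 1498 in HE 16 wkpp. In exonic reads every HE library lay below every -4 wkpp and LE library. Between -4 wkpp and HE 1 wkpp the difference was 1.54 ± 0.33 in exonic reads and 1.09 ± 0.25 in reads on the entire gene (adjusted p = 0.00651 and 0.0396). Between LE 16 wkpp and HE 16 wkpp it was 1.09 ± 0.23 in exonic reads and 0.54 ± 0.24 in reads on the entire gene (adjusted p = 0.00957 and 0.180), and the libraries of these groups overlapped on the entire gene. LTBP1 was also lower in LE 1 wkpp than at -4 wkpp in all 3 libraries, by 0.55 ± 0.20 in exonic reads and 0.55 ± 0.22 in reads on the entire gene (adjusted p = 0.246 and 0.409).

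LTBP2, which does not bind latent TGF-beta and was chosen after its values were seen, showed no such order. It had 1913, 1774 and 1986 at -4 wkpp, 827, 1635 and 1420 in LE 1 wkpp, 2953, 1541 and 2167 in HE 1 wkpp, 2907, 1527 and 1339 in LE 16 wkpp and 5408, 1913 and 5347 in HE 16 wkpp, and the groups at 16 wkpp overlapped. LTBP2 differed between LE 16 wkpp and HE 16 wkpp by -1.04 ± 0.44 in exonic reads and -1.01 ± 0.39 in reads on the entire gene (adjusted p = 0.113 and 0.125), in the direction opposite to LTBP1. LTBP3 had no comparison with an unadjusted p below 0.05 in both read sets.

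**Figure D3:**
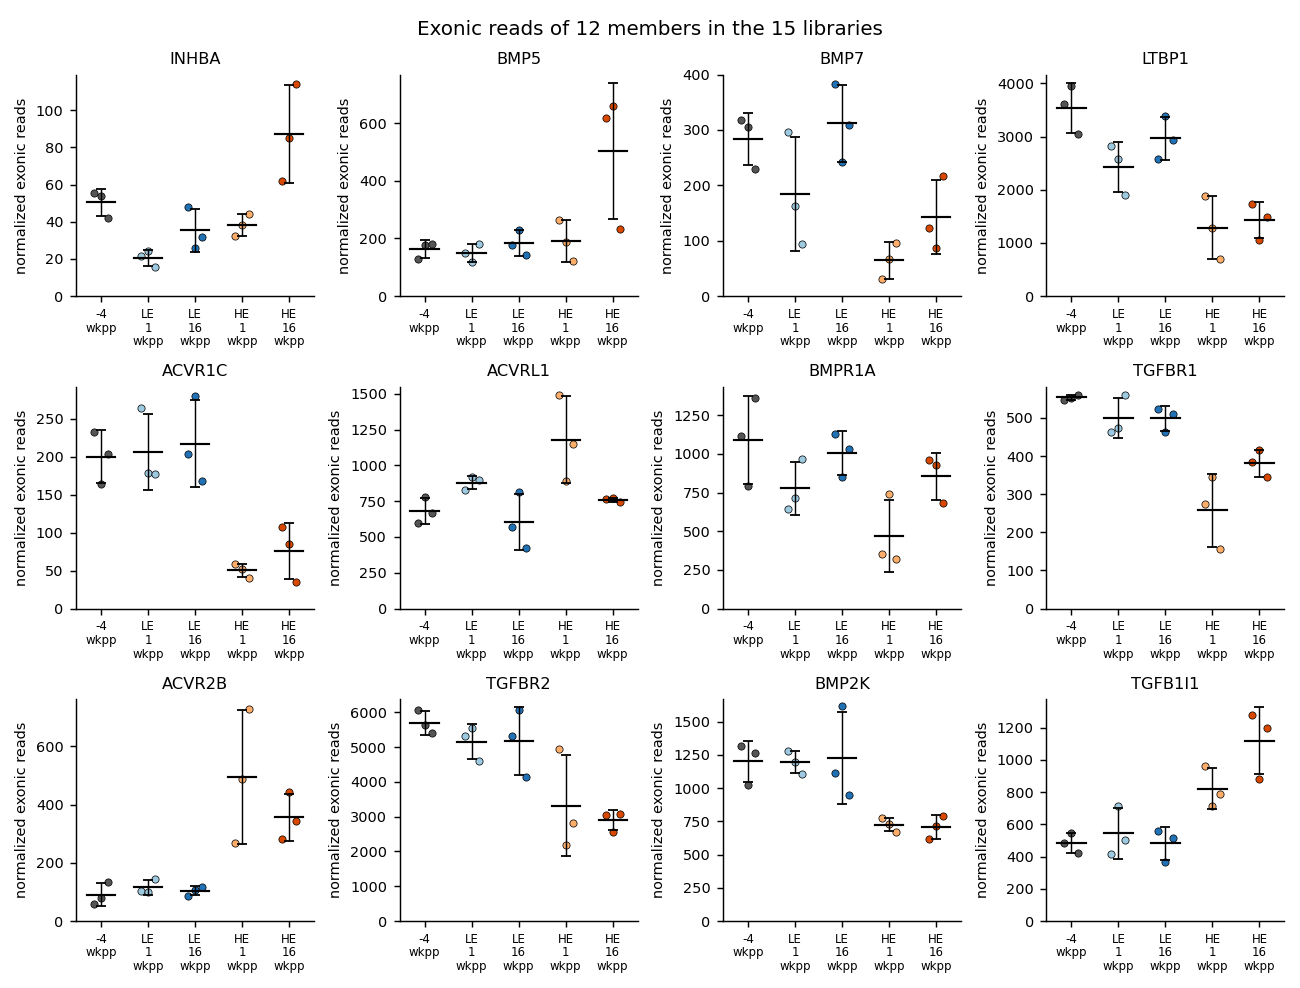
Normalized exonic reads of 12 members in the 15 libraries, by group, with 1 point per library, a line at the mean and bars for the SD of 3 libraries. LTBP1, TGFBR1, BMP2K and ACVR1C lie lower in every HE library than in every other library, and ACVR2B lies higher. The members were named by their call or smallest p in comparisons with an HE group, so that this order is not independent of the choice.

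Of the type I receptors, TGFBR1, BMPR1A and ACVR1C lay lower in HE 1 wkpp than at -4 wkpp and ACVRL1 lay higher. None was called by limma voom, and BMPR1A and TGFBR1 were called with sample quality weights and in the fit over all 15 libraries. TGFBR1, the type I receptor of TGF-beta, had 547, 553 and 561 at -4 wkpp, 464, 474 and 559 in LE 1 wkpp and 275, 345 and 155 in HE 1 wkpp. At 16 wkpp it had 524, 462 and 509 in LE and 383, 416 and 345 in HE. No HE library reached any library of the other groups. The differences were 1.11 ± 0.27 in exonic reads and 0.80 ± 0.24 in reads on the entire gene from -4 wkpp to HE 1 wkpp (adjusted p = 0.0117 and 0.0849), 0.96 ± 0.28 in exonic reads and 0.65 ± 0.23 in reads on the entire gene for LE minus HE at 1 wkpp (adjusted p = 0.0484 and 0.180), and 0.39 ± 0.16 in exonic reads and 0.38 ± 0.16 in reads on the entire gene for LE minus HE at 16 wkpp (adjusted p = 0.108 and 0.161).

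BMPR1A, a BMP receptor of adipocyte progenitors, had 1116, 794 and 1363 at -4 wkpp, 646, 718 and 971 in LE 1 wkpp, 351, 741 and 321 in HE 1 wkpp, 1131, 850.0 and 1030 in LE 16 wkpp and 961, 927 and 679.9 in HE 16 wkpp. Libraries 1 and 3 of HE 1 wkpp were the lowest of all, and library 2 fell within the range of LE 1 wkpp. The difference between -4 wkpp and HE 1 wkpp was 1.301 ± 0.33 in exonic reads and 1.27 ± 0.28 in reads on the entire gene (adjusted p = 0.0133 and 0.0339). Between HE 1 wkpp and HE 16 wkpp it was -0.97 ± 0.33 in exonic reads and -1.02 ± 0.31 in reads on the entire gene (adjusted p = 0.290 and 0.341). LE minus HE was 0.84 ± 0.32 in exonic reads and 0.83 ± 0.29 in reads on the entire gene at 1 wkpp, with adjusted p = 0.110 and 0.188.

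ACVR1C encodes ALK7, an activin and GDF receptor known for its expression in adipocytes. ACVR1C had 233, 164 and 204 normalized exonic reads at -4 wkpp, 265, 179 and 177 in LE 1 wkpp and 204, 279.9 and 168 in LE 16 wkpp. In HE cows it had 58.6, 51.6 and 40.6 at 1 wkpp and 108, 85.2 and 35.4 at 16 wkpp. All 6 HE libraries lay below the other 9, and the fitted exonic difference between -4 wkpp and HE 1 wkpp corresponded to 3.66-fold. The differences were 1.87 ± 0.36 in exonic reads and 1.29 ± 0.49 in reads on the entire gene for -4 wkpp minus HE 1 wkpp (adjusted p = 0.00371 and 0.157), 1.92 ± 0.39 in exonic reads and 0.89 ± 0.37 in reads on the entire gene for LE minus HE at 1 wkpp (adjusted p = 0.0157 and 0.249) and 1.42 ± 0.40 in exonic reads and 1.22 ± 0.40 in reads on the entire gene at 16 wkpp (adjusted p = 0.0324 and 0.0807). On the entire gene, where its reads in introns are included, ACVR1C libraries of -4 wkpp and HE 1 wkpp overlapped, as did those of LE 1 wkpp and HE 1 wkpp.

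ACVRL1 encodes ALK1, a receptor of endothelial cells for BMP9 and BMP10, and lay highest at 1 wkpp. ACVRL1 had 599.9, 776 and 665 at -4 wkpp, 825, 916 and 899 in LE 1 wkpp, 1493, 887 and 1152 in HE 1 wkpp, 570.2, 816 and 425 in LE 16 wkpp and 768, 769 and 745 in HE 16 wkpp. Both 1 wkpp groups lay above the -4 wkpp libraries without overlap. The -4 wkpp level differed by -0.77 ± 0.24 in exonic reads and -0.90 ± 0.29 in reads on the entire gene from HE 1 wkpp (adjusted p = 0.0355 and 0.103) and by -0.38 ± 0.16 in exonic reads and -0.49 ± 0.19 in reads on the entire gene from LE 1 wkpp (adjusted p = 0.310 and 0.411). LE 1 wkpp differed from LE 16 wkpp by 0.58 ± 0.23 in exonic reads and 0.66 ± 0.24 in reads on the entire gene (adjusted p = 0.683 and 0.725). Leaving out 1 library gave exonic differences of 0.34 to 0.82 between these groups. Blood vessel endothelium markers (7 of 7 measured, none at 0) summed to 20337 to 25489 at -4 wkpp, 31301 to 38491 in LE 1 wkpp, 31208 to 65874 in HE 1 wkpp, 23560 to 27130 in LE 16 wkpp and 25687 to 36263 in HE 16 wkpp, and their part in the ACVRL1 level was not tested. The ligands GDF2 (BMP9) and BMP10 had 10 and 5 exonic reads in all libraries together.

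ACVR1 had no comparison with an unadjusted p below 0.05 in both read sets. BMPR1B, chosen after its values were seen, was sparse, with 279 exonic reads in all, and the 3 libraries of HE 1 wkpp lay above those of LE 1 wkpp at 18.9, 73.3 and 48.0 against 7.87, 9.77 and 11.2.

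Among the type II receptors, TGFBR2, which binds TGF-beta, had 6065, 5627 and 5396 at -4 wkpp, 5322, 5548 and 4591 in LE 1 wkpp, 4952, 2176 and 2828 in HE 1 wkpp, 5325, 6076 and 4129 in LE 16 wkpp and 3038, 2569 and 3089 in HE 16 wkpp. At 16 wkpp all LE libraries lay above all HE libraries, while HE 1 wkpp library 1 fell within the LE 1 wkpp range. LE minus HE was 0.83 ± 0.20 in exonic reads and 0.56 ± 0.15 in reads on the entire gene at 16 wkpp (adjusted p = 0.0169 and 0.0471).

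BMPR2, the type II receptor of BMPs, had 3704, 2959 and 3910 at -4 wkpp, 2646, 3033 and 4003 in LE 1 wkpp, 2711, 2062 and 1288 in HE 1 wkpp, 3493, 3144 and 3092 in LE 16 wkpp and 2242, 1771 and 1645 in HE 16 wkpp. At 16 wkpp LE and HE did not overlap, yet the difference of 0.80 ± 0.18 in exonic reads and 0.27 ± 0.14 in reads on the entire gene (adjusted p = 0.0136 and 0.243) was much smaller on the entire gene. ACVR2A had no comparison with an unadjusted p below 0.05 in both read sets, and neither did AMHR2, the receptor of AMH.

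ACVR2B, a type II receptor of activins and myostatin, was higher in HE cows in exonic reads. It had 58.4, 79.1 and 135 normalized exonic reads at -4 wkpp, 102, 98.8 and 146 in LE 1 wkpp and 86.6, 108 and 116 in LE 16 wkpp, against 269, 488 and 727 in HE 1 wkpp and 283, 441 and 343 in HE 16 wkpp. Every HE library exceeded every other library. The difference between -4 wkpp and HE 1 wkpp was -2.36 ± 0.40 in exonic reads and -0.97 ± 0.20 in reads on the entire gene (adjusted p = 0.00192 and 0.0312). Between LE and HE it was -1.89 ± 0.36 in exonic reads and -0.71 ± 0.20 in reads on the entire gene at 1 wkpp (adjusted p = 0.0131 and 0.128) and -1.72 ± 0.23 in exonic reads and -0.65 ± 0.22 in reads on the entire gene at 16 wkpp (adjusted p = 0.00146 and 0.0934).

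The ACVR2B differences were smaller on the entire gene in all 3 of these comparisons and missed the threshold there, so that ACVR2B was not called by limma voom. It was called in -4 wkpp against HE 1 wkpp with sample quality weights and in the fit over all 15 libraries, and in LE 1 wkpp against HE 1 wkpp with quality weights. Its reads on the entire gene were 438, 604 and 558 at -4 wkpp, 692, 523 and 691 in LE 1 wkpp, 519, 545 and 810.5 in LE 16 wkpp, 1038, 979 and 1173 in HE 1 wkpp and 830.4, 1110 and 992 in HE 16 wkpp, again without overlap between the HE and the other libraries. The share of ACVR2B reads that fell in exons was 12.9% to 19.6% in the 9 libraries of -4 wkpp and LE and 26.5%, 52.0% and 60.8% in HE 1 wkpp and 34.4%, 43.4% and 42.9% in HE 16 wkpp. In HE 1 wkpp the library with the most reads, library 1, had the lowest share. Over all genes together, exonic reads were 40.8% to 55.4% of reads on entire genes in the -4 wkpp and LE libraries and 47.6% to 60.5% in the HE libraries, and the part of depth and spike-in share in the ACVR2B difference was not tested.

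The receptor-regulated SMADs carry the signal of TGF-beta and activin (SMAD2, SMAD3) or of BMPs (SMAD1, SMAD5, SMAD9). None of the 8 SMADs was called in any comparison by limma voom, and SMAD5, between HE 1 wkpp and HE 16 wkpp, was the only one whose libraries lay apart in the same direction in both read sets. SMAD5 had 2304, 1605 and 2444 at -4 wkpp, 1640, 1926 and 2610 in LE 1 wkpp, 1568, 1376 and 1318 in HE 1 wkpp, 3022, 2365 and 2785 in LE 16 wkpp and 2104, 2468 and 1993 in HE 16 wkpp. HE 1 wkpp was the lowest group, and its difference from HE 16 wkpp was -0.64 ± 0.21 in exonic reads and -0.51 ± 0.20 in reads on the entire gene (adjusted p = 0.274 and 0.394).

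SMAD4, the partner of all receptor-regulated SMADs, had 1354, 1292 and 1293 at -4 wkpp, 1135, 1426 and 1465 in LE 1 wkpp, 917, 1300 and 742 in HE 1 wkpp, 1890, 1355 and 1595 in LE 16 wkpp and 1362, 1329 and 1118 in HE 16 wkpp. It had no unadjusted p below 0.05 in both read sets in any comparison. SMAD1, SMAD2 and SMAD9 ranged from 664 to 1222, 897 to 1255 and 103 to 206 normalized exonic reads over the 15 libraries, and none had an unadjusted p below 0.05 in both read sets.

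SMAD3, singled out after its values were seen, had differences of opposite sign in the 2 read sets. Signs were opposite for 13.7% of all genes in -4 wkpp against HE 1 wkpp. In LE against HE they were opposite for 15.75% of all genes at 1 wkpp and 12.8% at 16 wkpp. Among the members, GDF10 and SMAD6 also had opposite signs in LE 1 wkpp against HE 1 wkpp, and SMAD9 in LE 16 wkpp against HE 16 wkpp. In exonic reads it had 321, 429.9 and 330.2 at -4 wkpp, 407, 339.8 and 304 in LE 1 wkpp and 462, 334 and 496 in LE 16 wkpp, against 453, 844 and 1133 in HE 1 wkpp and 551, 509 and 968 in HE 16 wkpp. On the entire gene it had 6416, 4384 and 5804, 5972, 5252 and 5212 and 4714, 6405 and 5682 in the same 3 groups, against 4961, 3204 and 3221 in HE 1 wkpp and 3205, 4236 and 4710 in HE 16 wkpp. At 1 wkpp and at 16 wkpp all HE libraries lay above all LE libraries in exonic reads and below them on the entire gene, so that the groups did not overlap in either read set but in opposite directions. The differences were -1.02 ± 0.31 in exonic reads and 0.59 ± 0.27 in reads on the entire gene between -4 wkpp and HE 1 wkpp, -1.04 ± 0.32 in exonic reads and 0.61 ± 0.24 in reads on the entire gene between LE and HE at 1 wkpp and -0.58 ± 0.26 in exonic reads and 0.48 ± 0.20 in reads on the entire gene at 16 wkpp, with adjusted p = 0.0310 and 0.222, 0.0539 and 0.228, and 0.132 and 0.153.

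SMAD3 was not called in any of these. Leaving out 1 library gave exonic differences of -0.72 to -0.33 for SMAD3 in LE 16 wkpp against HE 16 wkpp. The exonic share of SMAD3 reads was 4.62% to 10.6% in the -4 wkpp and LE libraries, 9.35%, 27.5% and 34.5% in HE 1 wkpp and 17.4%, 13.1% and 25.5% in HE 16 wkpp.

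**Figure D4:**
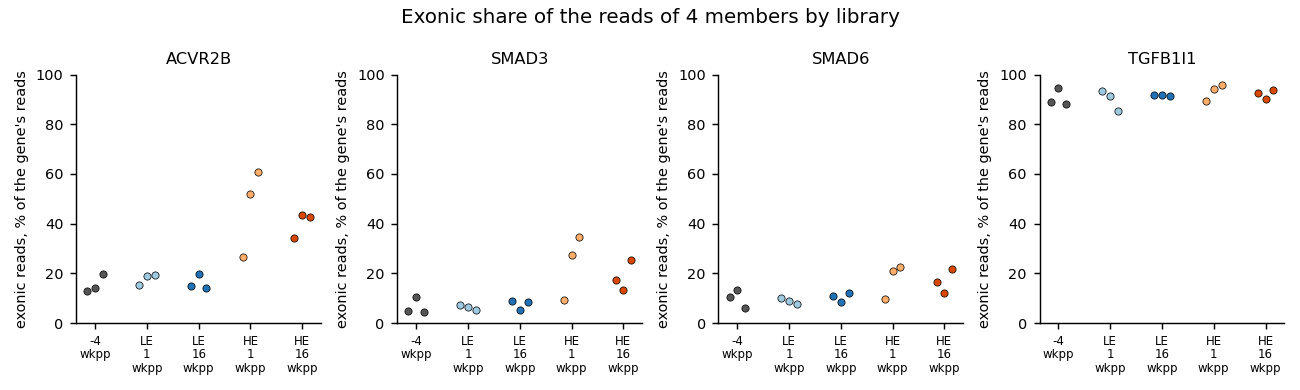
Reads in exons as a percentage of all reads on the gene for ACVR2B, SMAD3, SMAD6 and TGFB1I1, 1 point per library, by group. The share of ACVR2B lies at or below 19.6% in the -4 wkpp and LE libraries and at or above 26.5% in the HE libraries, and that of TGFB1I1 lies between 85.3% and 96.0% in all libraries.

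The exonic and entire gene differences of 3 of 38 members (ACVR2B, GDF10 and SMAD3) were more than 1 log2 unit apart in -4 wkpp against HE 1 wkpp, beside 4.04% of all genes. In LE 1 wkpp against HE 1 wkpp this was so for 5 of 38 (ACVR1C, ACVR2B, GDF10, SMAD3 and SMAD6, beside 3.88%), and in LE 16 wkpp against HE 16 wkpp for 4 of 38 (ACVR2B, BMP3, BMPER and SMAD3, beside 1.4%). In HE 1 against 16 wkpp it was so for BMPER alone (1 of 36, beside 1.33%). In -4 wkpp against LE 1 wkpp and LE 1 against 16 wkpp no member was, beside 0.472% and 0.391% of all genes. GDF10, BMP3 and BMPER were sparse in these libraries.

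The inhibitory SMADs are themselves induced by the signals they restrain. SMAD6, which acts mainly on BMP signals and was chosen with SMAD7 after their values were seen, had 199, 172 and 144 at -4 wkpp, 165, 442 and 549 in LE 1 wkpp, 1262, 356 and 310.1 in HE 1 wkpp, 158, 202 and 224 in LE 16 wkpp and 229, 292 and 452 in HE 16 wkpp. Library 1 of HE 1 wkpp was far above all others, and the 1 wkpp libraries of LE included 1 as low as -4 wkpp. SMAD7 had 125, 98.7 and 128 at -4 wkpp, 64.6, 104 and 126 in LE 1 wkpp, 265, 269 and 169.8 in HE 1 wkpp, 51.6, 75.8 and 47.3 in LE 16 wkpp and 98.3, 49.0 and 122 in HE 16 wkpp. SMAD7 was highest in the 3 HE 1 wkpp libraries, which overlapped -4 wkpp on the entire gene.

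TGFB1I1, also known as Hic-5, is a LIM domain protein of focal adhesions named for its induction by TGF-beta, and is abundant in smooth muscle. TGFB1I1 had 559.8, 368 and 518 normalized exonic reads in LE 16 wkpp against 1276, 883 and 1199 in HE 16 wkpp. It had 484, 545 and 423 at -4 wkpp, 414, 716 and 501 in LE 1 wkpp and 961, 716 and 786 in HE 1 wkpp. All HE 16 wkpp libraries lay above all LE 16 wkpp libraries, and the mean was 482 ± 101 (SD, n = 3) in LE 16 wkpp and 1120 ± 209 in HE 16 wkpp.

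The level of TGFB1I1 was lower in LE 16 wkpp than in HE 16 wkpp, by a log2 difference of -1.22 ± 0.21 in exonic reads and -1.43 ± 0.21 in reads on the entire gene (limma voom, adjusted p = 0.00455 and 0.00575), which is 2.33-fold in exonic reads. This call was lost when any of the 6 libraries was left out, with exonic differences of -1.38 to -1.04 over the 6 fits. The -4 wkpp libraries differed from HE 1 wkpp by -0.76 ± 0.22 in exonic reads and -0.82 ± 0.27 in reads on the entire gene (adjusted p = 0.0231 and 0.115), also without overlap. LE and HE at 1 wkpp overlapped, with a difference of -0.62 ± 0.25 in exonic reads and -0.62 ± 0.27 in reads on the entire gene (adjusted p = 0.128 and 0.267). The change of TGFB1I1 from 1 to 16 wkpp differed between LE and HE by 0.59 ± 0.34 in exonic reads and 0.77 ± 0.35 on the entire gene, with adjusted p = 0.990 and 0.991.

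Smooth muscle and pericyte markers were also higher in HE 16 wkpp than in LE 16 wkpp by their sum. This summed level (6 of 7 markers measured, none at 0) was 10635 to 22346 in LE 16 wkpp and 27296 to 67150 in HE 16 wkpp, without overlap. It was 15129 to 48823 at -4 wkpp, 15272 to 23462 in LE 1 wkpp and 18282 to 27265 in HE 1 wkpp. None of the 6 markers tested was called in LE 16 wkpp against HE 16 wkpp, and 3 were lower in LE with an unadjusted p below 0.05 in both read sets, beside 26.1% of all genes in either direction. Macrophage markers lay the other way, with all 4 tested higher in LE 16 wkpp at that unadjusted threshold and CD163 and CSF1R called, and fibroblast markers did so for 4 of 6, with DCN called. The part of these 3 marker lists in the TGFB1I1 difference was not tested.

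BMP2K, a kinase named for its induction by BMP2, had 1314, 1025 and 1266 at -4 wkpp, 1279, 1197 and 1110 in LE 1 wkpp, 1117, 1618 and 948 in LE 16 wkpp, 774, 733 and 672 in HE 1 wkpp and 616, 715 and 794 in HE 16 wkpp. The 6 HE libraries all lay below the 9 others. Differences were 0.72 ± 0.20 in exonic reads and 0.69 ± 0.25 in reads on the entire gene for -4 wkpp minus HE 1 wkpp (adjusted p = 0.0221 and 0.133), 0.72 ± 0.19 in exonic reads and 0.66 ± 0.21 in reads on the entire gene for LE minus HE at 1 wkpp (adjusted p = 0.0345 and 0.161), and 0.79 ± 0.22 in exonic reads and 0.84 ± 0.24 in reads on the entire gene at 16 wkpp (adjusted p = 0.0339 and 0.0509). TGFBRAP1, a protein that binds the TGF-beta receptors, was chosen after its values were seen and lay higher in every HE 1 wkpp library than at -4 wkpp, at 653, 475 and 598 against 351, 429 and 355, with no unadjusted p below 0.05 in both read sets.

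BMPER, a secreted modulator of BMP activity, was singled out after its values were seen because it had the smallest p of the members between -4 wkpp and LE 1 wkpp. It had 187, 139 and 184 normalized exonic reads at -4 wkpp and 59.0, 14.1 and 43.9 in LE 1 wkpp. In the later and HE groups it had 48.2, 78.7 and 111 (HE 1 wkpp), 18.8, 77.7 and 11.1 (LE 16 wkpp) and 116, 31.0 and 29.9 (HE 16 wkpp). In exonic reads the -4 wkpp libraries lay above all 12 libraries taken after calving, and on the entire gene 1 HE 1 wkpp library lay within their range. The difference between -4 wkpp and LE 1 wkpp was 2.35 ± 0.45 in exonic reads and 1.98 ± 0.32 in reads on the entire gene (adjusted p = 0.0413 and 0.0496), which misses the threshold of 0.01. Without LE 1 wkpp library 2 the exonic difference was 1.70. Keratinocyte markers also summed higher in every -4 wkpp library than in every LE 1 wkpp library, and their part in the BMPER difference was not tested.

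Further genes of the pathway were followed as lists, of which that of BMP targets also holds SMAD6 and that of TGF-beta targets SMAD7. Of the secreted antagonists and modulators, 16 of 22 were measured and 11 tested in -4 wkpp against HE 1 wkpp, where 4 were called, all higher at -4 wkpp, beside 1.84% of all genes. These were DCN, which encodes a proteoglycan that binds TGF-beta, FBN1, the fibrillin to which LTBPs attach, FSTL1, a secreted follistatin-like protein, and TWSG1, a modulator of BMP binding. DCN had 51273, 45695 and 46724 at -4 wkpp and 3950, 8898 and 8635 in HE 1 wkpp, a difference of 2.83 ± 0.31 in exonic reads and 2.73 ± 0.31 in reads on the entire gene (adjusted p = 0.000242 and 0.00735). FBN1 had 78975, 86172 and 62000 and 12536, 12057 and 12172, a difference of 2.62 ± 0.21 in exonic reads and 2.49 ± 0.24 in reads on the entire gene (adjusted p = 7.62e-05 and 0.00514). FSTL1 differed by 3.00 ± 0.21 in exonic reads and 2.76 ± 0.28 in reads on the entire gene, and TWSG1 by 1.93 ± 0.22 in exonic reads and 1.66 ± 0.21 in reads on the entire gene. The median exonic difference of the 11 tested genes was 0.98, beside 0.04 over all genes. All 4 calls were lost when any 1 library other than HE 1 wkpp library 1 was left out.

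In LE 16 wkpp against HE 16 wkpp 4 of 10 tested antagonists and modulators were called, beside 3.65% of all genes. DCN, FBN1 and FSTL1 were higher in LE, by 2.19 ± 0.34 in exonic reads and 2.04 ± 0.33 in reads on the entire gene for DCN, 2.22 ± 0.29 in exonic reads and 1.91 ± 0.24 in reads on the entire gene for FBN1 and 2.13 ± 0.28 in exonic reads and 1.58 ± 0.24 in reads on the entire gene for FSTL1 (adjusted p = 0.00283 and 0.00797, 0.00146 and 0.00407, and 0.00151 and 0.00661). CRIM1, a transmembrane protein that binds BMPs, was lower in LE, at 1416, 1393 and 2067 against 4756, 4631 and 4022, a difference of -1.47 ± 0.20 in exonic reads and -1.43 ± 0.21 in reads on the entire gene (adjusted p = 0.00158 and 0.00579). The calls of FBN1, FSTL1 and CRIM1 were lost when any 1 of the 6 libraries was left out, and that of DCN when any library other than HE 16 wkpp library 1 was. None of the list was called by limma voom in the other 4 comparisons, in which 12, 10, 10 and 10 were tested, in the order -4 wkpp against LE 1 wkpp, HE 1 against 16 wkpp, LE 1 against 16 wkpp and LE 1 wkpp against HE 1 wkpp. An unadjusted p below 0.05 in both read sets was found for 6, 2, 3 and 8 of them, beside 9.62%, 8.02%, 4.53% and 18.3% of all genes, and 7 of the last 8 were higher in LE. Sample quality weights called 1, 0, 0 and 6 of them, beside 2.81%, 0%, 0% and 7.72% of all genes. Fibroblast markers (6 of 7 measured, DCN among them) summed to 185391 to 214199 at -4 wkpp, 54902 to 144479 in LE 1 wkpp, 116721 to 309502 in LE 16 wkpp, 28203 to 61718 in HE 1 wkpp and 37613 to 59034 in HE 16 wkpp, and their part in these differences was not tested.

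Of 21 membrane and intracellular regulators 12 were measured, 11 were tested in each comparison and none was called by limma voom. At an unadjusted p below 0.05 in both read sets there were 2 in -4 wkpp against HE 1 wkpp, 2 in -4 wkpp against LE 1 wkpp, 0 in HE 1 against 16 wkpp, 1 in LE 1 against 16 wkpp, 0 in LE 1 wkpp against HE 1 wkpp and 2 in LE 16 wkpp against HE 16 wkpp, beside 25.3%, 9.62%, 8.02%, 4.53%, 18.3% and 26.1% of all genes. Sample quality weights called 2, both in -4 wkpp against HE 1 wkpp (ENG and TGIF2), beside 15.1% of all genes there. ENG, an endothelial co-receptor of ACVRL1, had 1196, 1550 and 1974 at -4 wkpp, 2187, 2165 and 3532 in LE 1 wkpp, 8183, 2890 and 4674 in HE 1 wkpp, 1281, 1963 and 1966 in LE 16 wkpp and 3270, 2468 and 3584 in HE 16 wkpp. The 1 wkpp libraries all lay above -4 wkpp, with differences of -1.62 ± 0.36 in exonic reads and -1.66 ± 0.48 in reads on the entire gene in HE (adjusted p = 0.00707 and 0.0769, as -4 wkpp minus HE) and -0.73 ± 0.25 in exonic reads and -1.003 ± 0.26 in reads on the entire gene in LE (adjusted p = 0.222 and 0.177). ENG was named after its values were seen, and the part of the blood vessel endothelium markers in its level was not tested.

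Of 9 known BMP target genes 8 were measured, 7 were tested and none was called by limma voom in any comparison, with 3, 4, 3, 1, 0 and 2 of 7 at the unadjusted threshold in the same order of comparisons, and so with the same shares of all genes beside them (25.3%, 9.62%, 8.02%, 4.53%, 18.3% and 26.1%). Sample quality weights called 1 of 7, TMEM100 in -4 wkpp against HE 1 wkpp, beside 15.1% of all genes. Their median exonic difference was -1.04 for -4 wkpp minus HE 1 wkpp and -0.98 for -4 wkpp minus LE 1 wkpp, beside 0.04 and -0.03 over all genes. For 1 wkpp minus 16 wkpp it was 0.85 in HE and 0.63 in LE, beside -0.01 and -0.01. The medians of -0.98 and 0.85 are the differences of SMAD6 itself. Blood vessel endothelium markers had medians of -0.68 for -4 wkpp minus HE 1 wkpp and -0.55 for -4 wkpp minus LE 1 wkpp, with 3 and 5 of 7 lower at -4 wkpp at an unadjusted p below 0.05 in both read sets (beside 25.3% and 9.62% of all genes in either direction) and none called by limma voom, and their part in the BMP target medians was not tested. ID1, ATOH8 and TMEM100 were chosen from the list after their values were seen. ID1 had 248, 496 and 409.9 at -4 wkpp, 325, 1794 and 1868 in LE 1 wkpp and 2195, 396 and 399 in HE 1 wkpp, so that 2 LE libraries and 1 HE library were high and the others were in the -4 wkpp range. In exonic reads ATOH8 was higher in all 6 libraries of 1 wkpp, at 234, 394 and 356 in LE and 654, 469.5 and 454 in HE against 153, 188 and 136 at -4 wkpp, with a difference of -1.74 ± 0.25 in exonic reads and -1.64 ± 0.47 in reads on the entire gene from HE (adjusted p = 0.000873 and 0.0764) and of -1.004 ± 0.25 in exonic reads and -1.28 ± 0.48 in reads on the entire gene from LE (adjusted p = 0.0970 and 0.372). On the entire gene LE 1 wkpp library 1 lay within the -4 wkpp range. TMEM100 lay lower at 1 wkpp, at 417, 253 and 439 at -4 wkpp against 221, 204 and 212 in LE 1 wkpp and 153, 70.6 and 59.1 in HE 1 wkpp.

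**Figure D5:**
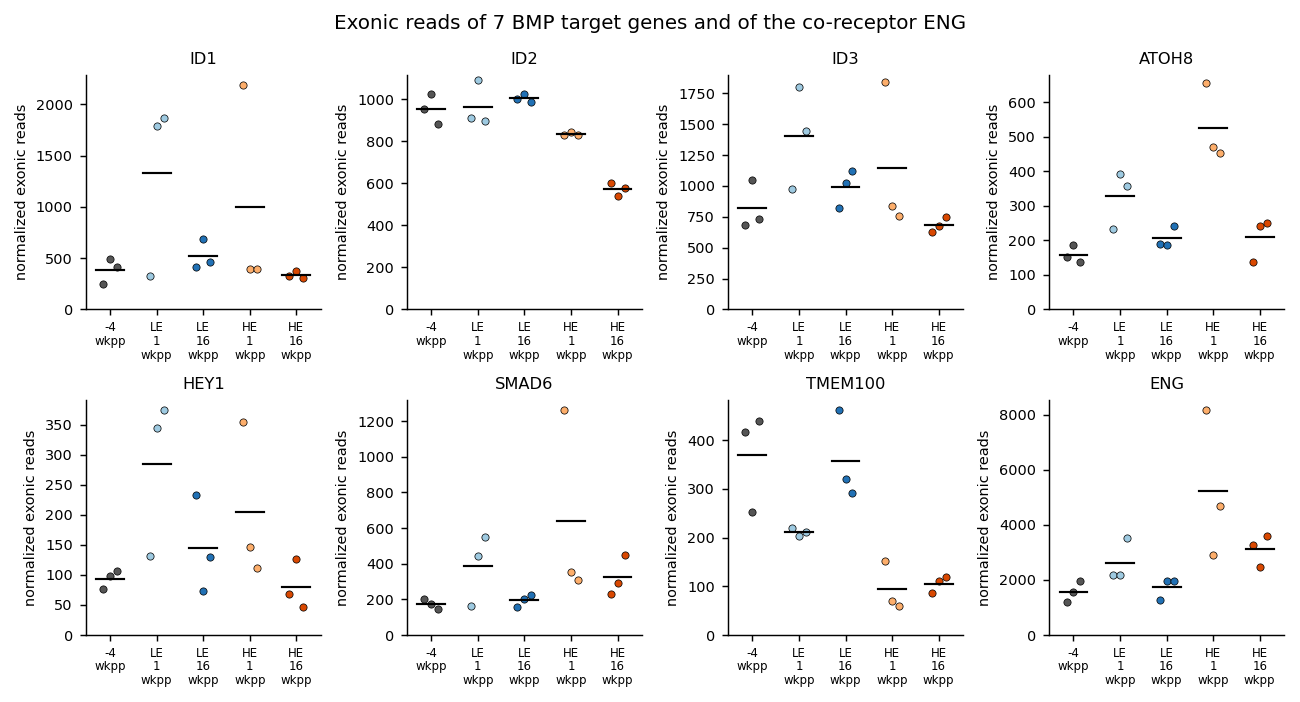
Normalized exonic reads of the 7 tested BMP target genes and of ENG in each of the 15 libraries, by group, 1 point per library and a line at the mean of 3. ID1 and HEY1 are high in LE 1 wkpp libraries 2 and 3 and HE 1 wkpp library 1, and ENG and ATOH8 are higher in all libraries of 1 wkpp than at -4 wkpp.

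Of 18 TGF-beta target genes 17 were measured and 16 tested in each comparison, and COL3A1 was not used here. In -4 wkpp against HE 1 wkpp 3 were called, all higher at -4 wkpp, beside 1.84% of all genes. COL1A2, a chain of type I collagen, had 138937, 151025 and 130213 at -4 wkpp and 19008, 18472 and 8532 in HE 1 wkpp, a difference of 3.30 ± 0.32 in exonic reads and 3.25 ± 0.39 in reads on the entire gene (adjusted p = 0.000156 and 0.00812). FN1, which encodes fibronectin, had 123090, 98261 and 81308 and 10216, 5444 and 2898, a difference of 4.21 ± 0.41 in exonic reads and 4.06 ± 0.50 in reads on the entire gene (adjusted p = 0.000158 and 0.00817). POSTN, a matricellular protein that the study named from these samples and that is therefore not independent evidence of direction, had 13305, 7204 and 10703 and 188, 141 and 84.9, a difference of 6.09 ± 0.36 in exonic reads and 5.53 ± 0.30 in reads on the entire gene (adjusted p = 1.51e-05 and 0.00120). Of the 6 fits that leave out 1 library, POSTN was called in 4 (not without -4 wkpp library 2 or 3), COL1A2 in 2 (without HE 1 wkpp library 1 or 3) and FN1 in 1 (without HE 1 wkpp library 1). Fibroblast markers summed to 185391 to 214199 at -4 wkpp against 28203 to 61718 in HE 1 wkpp, all 6 tested were higher at -4 wkpp at an unadjusted p below 0.05 in both read sets (25.3% of all genes in either direction) and DCN and PDGFRA were called, calls that held without HE 1 wkpp library 1 and were lost without any other library. COL1A1 is on both the fibroblast and the TGF-beta target list, so that these lists are not separate measures. The part of the fibroblast markers in the 3 differences was not tested.

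No TGF-beta target gene was called in the other 5 comparisons by limma voom, with 5, 5, 3, 4 and 7 of 16 at an unadjusted p below 0.05 in both read sets in -4 wkpp against LE 1 wkpp, HE 1 against 16 wkpp, LE 1 against 16 wkpp, LE 1 wkpp against HE 1 wkpp and LE 16 wkpp against HE 16 wkpp, beside 9.62%, 8.02%, 4.53%, 18.3% and 26.1% of all genes. Sample quality weights called 5, 0, 0, 1 and 0 of them, beside 2.81%, 0%, 0%, 7.72% and 4.73% of all genes. The 16 tested genes had a median exonic difference of 1.29 for -4 wkpp minus HE 1 wkpp and 0.36 for -4 wkpp minus LE 1 wkpp, beside 0.04 and -0.03 over all genes. In LE 16 wkpp against HE 16 wkpp 4 were higher in LE and 3 lower at that unadjusted threshold. TAGLN and ACTA2, which were lower in LE at that threshold, are also on the list of smooth muscle and pericyte markers.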

How the data were processed

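Total RNA of subcutaneous adipose tissue was depleted of ribosomal RNA, sequenced as stranded libraries and, per the labels' processing notes, demultiplexed with bcl2fastq 2.15.0, trimmed with cutadapt 1.3, aligned to bosTau8 with TopHat2 and counted with HTSeq. The authors deposited 6 tables of DESeq2 output, and the deposited values used here are the means of normalized counts over the 6 libraries of a comparison, in exons and on the entire gene; the authors' own fold changes, standard errors, test statistics and p-values in those tables were not used. Whether counting used strand is not given in the sources used here, so overlapping antisense genes cannot be told apart.

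Because each mean is written with 15 digits and each group enters several tables, the whole reads of each library were solved for, with at most 3 rounding errors allowed. This gave reads for 13894 of 13896 genes (not COL3A1 and RN7SL1) and for 88 of 92 spike-ins in exons. Within a group, libraries are numbered by exonic total and are not tied to a sample. There were 0 columns of other samples.

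Reads were scaled by median-of-ratios size factors over genes without spike-ins, and levels are on factors of all 15 libraries. Each read set was fitted with limma 3.58.1 (voom, R 4.3.3) on the 6 libraries of a comparison, over genes with a mean normalized count of at least 10. Benjamini-Hochberg adjustment was made within each read set, over the genes that passed its own filter. Genes that passed in both read sets count as tested, with a threshold of 0.01 in both. A contrast over 12 libraries tested whether 1 wkpp minus 16 wkpp differed by diet. Reads were recovered with Python 3.11.15 and sympy 1.14.0, and both steps were tested on simulated data. P-values measure the spread between 3 cows per group and treat libraries of different times as separate cows. Alternatives were other scalings, filters, thresholds, models and leaving out each library, and they were applied to the lists after the data were seen. Values were given for members called, for those with the smallest p in -4 wkpp against HE 1 wkpp and LE against HE until 12 were named, and for the member or members with most reads in a role, and others are said to be chosen after their values were seen. The members and lists were chosen with earlier results of these data known. The values of 1 gene of the lists are not reported here.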

Additional observations from a re-analysis of the deposited data

Results flagged for a closer look

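Spike-in RNA, which enters none of the comparisons, took 22.9% ± 7.71 (SD, n = 3) of exonic reads in HE 1 wkpp and 19.2% ± 3.42 in HE 16 wkpp. In the -4 wkpp group, sampled before the diets, it took 1.73% ± 0.794, and in LE 1 wkpp and LE 16 wkpp it took 2.59% ± 1.49 and 0.868% ± 0.0482. Both HE groups were therefore above the level of the -4 wkpp group, and the part of this difference in the member levels was not tested.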

How the results depend on the processing

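Members called in -4 wkpp against HE 1 wkpp went from 0 to 4 on exonic reads alone, 4 at an adjusted p of 0.05 in both read sets, 7 with sample quality weights and 4 in one fit over all 15 libraries, beside 16.5%, 10.2%, 15.1% and 10.5% of all genes. In -4 wkpp against LE 1 wkpp they went from 0 to 1 (BMPER) at 0.05 and 1 (BMPER) with quality weights (0.632% and 2.81% of all genes), and in LE 1 wkpp against HE 1 wkpp from 0 to 1 (ACVR2B) with quality weights (7.72%). In LE 16 wkpp against HE 16 wkpp they went from 1 to 3 on exonic reads alone and 4 at 0.05 (10.3% and 13.3%), and leaving out any 1 library gave 0 to 0. The other settings gave TGFB1I1 there, and leaving out a library gave 0 to 0 members in the other comparisons and the difference test. For single members the 47 differences printed or, among the members named by rule, with an unadjusted p below 0.05 in both read sets were recomputed, and 718 values kept their call, 25 gained one, 6 lost one and 3 changed sign. The latter are SMAD3 on reads of the entire gene alone, at 0.59, 0.61 and 0.48 in -4 wkpp against HE 1 wkpp and LE against HE at 1 and 16 wkpp. Over all genes, calls in -4 wkpp against HE 1 wkpp went from 192 to 1578 with quality weights and to 1 to 229 when a library was left out, in LE 1 wkpp against HE 1 wkpp from 0 to 801 and 0 to 449 (the latter without HE 1 wkpp library 1), and in -4 wkpp against LE 1 wkpp from 4 to 298 and 0 to 89 (without LE 1 wkpp library 1). In LE 16 wkpp against HE 16 wkpp they went from 371 to between 34 and 111 when a library was left out, lowest without LE 16 wkpp library 3 or HE 16 wkpp library 3. Calls among the antagonists and modulators went from 4 to between 0 and 4 in -4 wkpp against HE 1 wkpp and from 4 to between 0 and 1 in LE 16 wkpp against HE 16 wkpp when a library was left out, and those among the TGF-beta targets from 3 to between 0 and 3 in the former, settings added after the data were seen. From 0 calls, the antagonists and modulators reached 3 in LE 1 wkpp against HE 1 wkpp without HE 1 wkpp library 1, and in -4 wkpp against LE 1 wkpp without LE 1 wkpp library 1 the TGF-beta targets reached 4 and the BMP targets 1. Scaling by total count moved the median of all genes from 0.04 to -0.14 and from -0.03 to -0.17 in the comparisons of -4 wkpp with HE 1 wkpp and LE 1 wkpp. The causes were not tested. The depth of HE libraries limits sparse members such as GDF10 and AMH. No paired analysis was possible because the recovered libraries carry no replicate number.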
